A study of Homo sapiens with 9 samples.

Results

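The genes described here are those of glycolysis and of the response to low oxygen, measured in MDA-MB-231, a triple-negative breast cancer cell line. A list of 40 symbols defined them: enzymes of glycolysis, enzymes that decide the fate of pyruvate, glucose and lactate transporters, subunits of the hypoxia-inducible factors (HIF), the prolyl hydroxylases that mark HIF for destruction, and further genes known to respond to hypoxia. A gene was read from probe sets that the array's annotation pairs with 1 symbol, and its value was that of the probe set with the highest mean over all arrays. In this way 37 of the 40 genes had a value, of 19775 genes on the array. SLC16A1, SLC16A3 and CA9 had no such probe set in the annotation used and were not analysed here.

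Cells were transfected in 6-well plates with 1 of 3 small RNAs at 10 nM, and total RNA was taken 48 h later. The groups were AllStar, a negative control, Qmimic and Dmimic, with 3 biological replicates each on 9 HG-U133 Plus 2.0 arrays. In the title of the series AXL, a receptor tyrosine kinase, is a target of the microRNA miR-34a, while the labels neither explain the letters Q and D nor give the sequence of a mimic. All wells came from the same cell line and received the same transfection reagent, and no untransfected cells or cells held at low oxygen were among the samples. A value is an average over a well, so fewer cells that make a transcript and less of it per cell cannot be told apart.

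Glycolysis splits glucose into pyruvate and yields ATP without oxygen, and many tumour cells run it at a high rate even in air. In the presence of oxygen, EGLN enzymes hydroxylate the HIF alpha subunits, which are then degraded. When oxygen falls, the alpha subunits HIF1A or EPAS1 pair with ARNT, bind DNA at the core letters ACGTG or GCGTG, and switch on glucose transporters, most glycolytic enzymes, PDK1 and genes such as VEGFA, CA9, NDRG1 and ANKRD37. HIF is controlled mainly through the stability of its protein, which these arrays do not measure.

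ANKRD37 differed between the mimics, and SLC2A1 had the next largest difference between them. PGK1 and LDHA are classical HIF targets that did not pass the test. NDRG1, which differed between Dmimic and AllStar, had no promoter in the set searched. The promoters of ANKRD37, SLC2A1, PGK1 and LDHA are shown as examples. Each is the 250 bases before the RefSeq gene start (GRCh38.p14), read 5′ to 3′ along the strand of the gene, with ACGTG in capitals where it lies on either strand. They lie at chr4:185396591-185396840 (plus strand) for ANKRD37, chr1:42958869-42959118 (minus strand) for SLC2A1, chrX:78103998-78104247 (plus strand) for PGK1 and chr11:18394313-18394562 (plus strand) for LDHA.
ANKRD37: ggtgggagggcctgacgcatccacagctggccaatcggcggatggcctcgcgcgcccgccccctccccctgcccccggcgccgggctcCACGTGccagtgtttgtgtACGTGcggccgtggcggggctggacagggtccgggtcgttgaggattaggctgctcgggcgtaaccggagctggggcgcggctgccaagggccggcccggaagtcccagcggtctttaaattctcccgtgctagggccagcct
SLC2A1: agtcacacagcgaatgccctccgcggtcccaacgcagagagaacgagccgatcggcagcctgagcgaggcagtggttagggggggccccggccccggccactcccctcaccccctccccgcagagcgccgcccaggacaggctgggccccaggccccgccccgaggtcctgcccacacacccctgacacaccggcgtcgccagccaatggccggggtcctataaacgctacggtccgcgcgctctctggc
PGK1: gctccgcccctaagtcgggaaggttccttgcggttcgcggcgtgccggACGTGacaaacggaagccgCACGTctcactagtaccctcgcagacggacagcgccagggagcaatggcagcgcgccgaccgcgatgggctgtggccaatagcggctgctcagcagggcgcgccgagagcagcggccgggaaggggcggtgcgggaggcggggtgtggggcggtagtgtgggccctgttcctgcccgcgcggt
LDHA: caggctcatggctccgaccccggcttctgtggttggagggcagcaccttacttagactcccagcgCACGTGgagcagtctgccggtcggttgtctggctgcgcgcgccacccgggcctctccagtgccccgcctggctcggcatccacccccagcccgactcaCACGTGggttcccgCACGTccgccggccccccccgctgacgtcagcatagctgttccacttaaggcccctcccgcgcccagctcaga
ACGTG occurred 3 times in the ANKRD37 window, 2 times in that of PGK1, 5 times in that of LDHA and nowhere in that of SLC2A1, counting both strands and counting the palindrome CACGTG once on each. Promoters were found for 33 of the 37 genes. ACGTG was present in 13 of the 33 (39.4%), against 18.7% of 27305 promoters of the same length, and GCGTG in 14 (42.4%), against 31.9%. At least 1 of these cores, which can share their outer letters, was present in 22 of the 33 (66.7%), against 43.1% of all promoters. These matches describe the letters of the windows only. The promoters compared were not matched for base content or for the level of their genes, so the shares cannot be read as particular to this list. Among the genes that held neither core were HK1, TPI1, PGAM1, PKM and PDK1. ANKRD37 was the only gene past the test with a promoter, so the matches cannot show whether such genes differ from the rest. LDHA, which did not pass, held more copies of ACGTG than ANKRD37.

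One library, AllStar replicate 3, differed from the rest. It correlated with them at 0.974 to 0.981, where the others reached 0.993 to 0.998 with each other. Its interquartile range was 2.99 against 3.41 to 3.53, and its mean for 18S ribosomal RNA was 8.73 against 5.27 to 6.26 on the log2 scale. The glycolysis and hypoxia genes moved with it: 33 of 37 (89.2%) lay below the mean of AllStar replicates 1 and 2, with a median of -0.30. Over all genes the median of that difference was -0.05, but over the 6539 genes with a mean log2 value of 8 or more it was -0.37, and 92.3% lay below 0. The 32 glycolysis and hypoxia genes at that level had a median of -0.31. The lowest was EGLN1 at -0.72, and the 4 that lay above instead were ANGPTL4, EGLN3, ALDOC and PFKL. Every comparison is therefore given with all 9 arrays and without AllStar replicate 3, which leaves 2 AllStar arrays. The markers VIM (13.53 to 13.71) and CD44 (11.77 to 12.13) were high on every array, and the epithelial gene CDH1 (3.44 to 4.02), the leukocyte gene PTPRC (3.73 to 4.46) and the progesterone receptor gene PGR (3.64 to 4.72) were low. Not all markers of other cell types were: the luminal epithelial genes GATA3 and EPCAM read 7.45 to 8.61 and 7.26 to 8.36, and the leukocyte gene CD3E read 5.24 to 5.98. The oestrogen receptor gene ESR1, which a triple-negative line lacks as a protein, read 6.74 to 7.45.

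**Figure D1:**
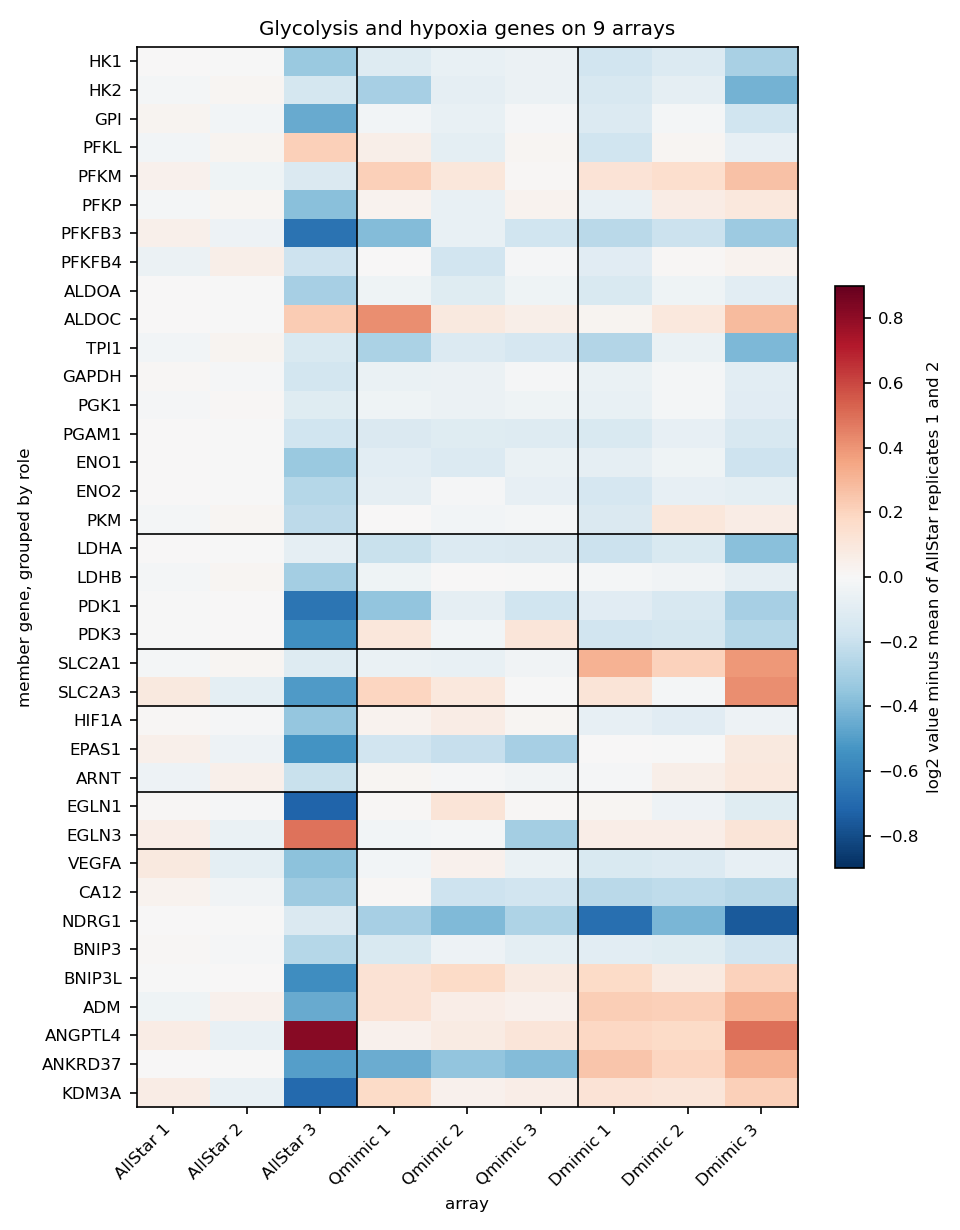
Log2 value of each of the 37 genes (rows, grouped by role) on each of the 9 arrays (columns), minus the mean of AllStar replicates 1 and 2 for that gene. Blue is lower and red is higher; the column of AllStar replicate 3 is blue for 33 of 37 genes, while NDRG1 is blue in both mimics and ANKRD37 is blue in Qmimic and red in Dmimic.

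Few of these genes differed between the groups. With all 9 arrays, 0 of the 37 were called, that is, had a limma adjusted p under 0.05 and a difference of at least 1.5-fold, in any of the 4 comparisons. The share of all genes called there was 0% for Qmimic against AllStar, 0.0101% for Dmimic against AllStar, 0.131% for both mimics together and 0% for Qmimic against Dmimic. Adjusted p alone passed for 0 of the 37 in each comparison, where 0%, 0.0101%, 0.142% and 0% of all genes passed. Unadjusted p was under 0.05 for 1, 8, 6 and 3 of the 37 in the same order, against 19.7%, 17.3%, 24.1% and 2.54% of all genes. Without AllStar replicate 3, 0 were called for Qmimic against AllStar (0.693% of all genes) and 1 for Dmimic against AllStar (1.27% of all genes), which was NDRG1, among 0.647% of all genes called lower. There were 0 for both mimics together (1.04% of all genes) and 1 for Qmimic against Dmimic (0.0961% of all genes), which was ANKRD37, lower in Qmimic as were 0.086% of all genes. By adjusted p alone 1 of the 37 passed in each comparison, where 2.09%, 3.32%, 4.03% and 0.288% of all genes did, and unadjusted p was under 0.05 for 5, 13, 8 and 8 of the 37, against 20.9%, 21.3%, 23% and 11.7%. Counts of 0 or 1 in 37 were not tested against these shares, and 1 gene is too few to describe the list.

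The 95% intervals describe the probe set that stands for each gene, each interval taken alone. Another probe set of the same gene can lie further out, as for SLC2A3 in Dmimic, given further on. Without AllStar replicate 3, the 95% interval lay inside 1.5-fold in both directions for 37 of 37 genes for Qmimic against AllStar, where 93.4% of all genes did so. It lay inside for 36 of 37 for Dmimic against AllStar (92.6% of all genes) and for 36 of 37 for Qmimic against Dmimic (98.2%), and the exceptions were NDRG1 and ANKRD37. In the fit of all 9 arrays the counts were 31, 31 and 35 of 37, beside 71.6%, 74.2% and 91.8% of all genes. The median of the differences without AllStar replicate 3 was -0.04 for Qmimic and -0.06 for Dmimic against AllStar, beside -0.01 and 0.01 over all genes. With all 9 arrays it was 0.02 and 0.01, so its sign turned with that array. Normalising those 9 arrays again by quantiles turned it to -0.08 and -0.07 and by cyclic loess to -0.10 and -0.10. Centring them on array medians instead left it positive, at 0.088 and 0.065, beside 0.049 and 0.043 over all genes. The sign thus also depended on how the arrays were scaled.

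The arrays of 2 groups separated completely for some genes, and how many and in which direction depended on the fit. Without AllStar replicate 3, the Qmimic arrays lay wholly to one side of AllStar for 21 of 37 genes, 4 higher and 17 lower, so that 56.8% separated and 45.9% did so downwards. Of all genes 43.7% separated, 22.6% upwards and 21.1% downwards. The Dmimic arrays separated for 25 of 37, 8 higher and 17 lower, against 39.8% of all genes, 22% upwards and 17.8% downwards. All 6 mimic arrays separated from AllStar for 16 of 37, 2 higher and 14 lower, against 26.3% of all genes, 14.8% upwards and 11.5% downwards. For Qmimic against Dmimic it was 12 of 37, 6 in each direction, against 17.5% of all genes, 8.12% higher and 9.4% lower. The counts against all 3 AllStar arrays were 5 for Qmimic, 3 higher and 2 lower (30.2% of all genes, 19.2% higher and 11% lower), and 8 for Dmimic, 6 higher and 2 lower (24.2%, 17.1% higher and 7.13% lower). For both mimics together the count was 3, with BNIP3L higher and LDHA and NDRG1 lower (17%, 12.8% higher and 4.21% lower). On AllStar replicate 3 itself 33 of the 37 were low, as given above, and the 3 counts of genes lower than AllStar were larger without it. The shares here and for the intervals are over all genes at any level. Of the 37, 32 had a mean log2 value of 8 or more, as did 6539 of all 19775 genes. No share was taken among genes of like level, so the counts cannot be read as particular to this list.

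NDRG1, a stress gene with a long-known response to hypoxia that has been described as a suppressor of metastasis, differed most of the 37 between Dmimic and AllStar, and was lower in Dmimic. Its log2 values were 11.08, 11.07 and 10.95 in AllStar, 10.78, 10.68 and 10.80 in Qmimic, and 10.40, 10.67 and 10.32 in Dmimic. The 3 groups did not overlap: every Qmimic array lay below every AllStar array, AllStar replicate 3 included, and every Dmimic array lay below every Qmimic array. The means were 11.03 ± 0.08 (SD, n = 3), 10.75 ± 0.06 and 10.46 ± 0.18. In limma without AllStar replicate 3, NDRG1 fell in Dmimic by 0.62 (SE 0.10, 95% interval -0.83 to -0.40, 1.53-fold, adjusted p = 0.0193). On all 9 arrays the difference was -0.57 (SE 0.10, 1.49-fold) at an adjusted p of 0.0924. Qmimic differed from AllStar by -0.32 (adjusted p = 0.12) without that array and by -0.28 (adjusted p = 0.266) with it. Over both mimics NDRG1 fell by 0.47 without it, which passed adjusted p (0.0252) but was a 1.39-fold difference. The difference between the mimics, 0.29, did not pass (adjusted p = 0.268). The call for NDRG1 rested on few arrays: leaving out a further AllStar array gave an adjusted p of 0.185 or 0.162 at -0.61 and -0.62, and leaving out Dmimic replicate 1 or 3 gave -0.58 or -0.55, under 1.5-fold.

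ANKRD37, an ankyrin repeat protein whose gene is a direct HIF target and whose promoter is printed above, separated the mimics from each other. Its log2 values were 8.58, 8.58 and 8.08 in AllStar, 8.13, 8.22 and 8.19 in Qmimic, and 8.83, 8.77 and 8.89 in Dmimic. All Dmimic arrays lay above all others, the Qmimic arrays lay below AllStar replicates 1 and 2, and AllStar replicate 3 lay below all Qmimic arrays. In the fit without AllStar replicate 3, ANKRD37 was lower in Qmimic than in Dmimic by a log2 difference of -0.65 (SE 0.06, 95% interval -0.78 to -0.52, 1.57-fold, adjusted p = 0.00271). No AllStar value enters that difference, but AllStar arrays enter the estimate of the spread: with all 9 arrays the same -0.65 had an SE of 0.13 and an adjusted p of 0.803, and with the 6 mimic arrays alone it had an adjusted p of 0.0125. Against AllStar without replicate 3, ANKRD37 fell in Qmimic by 0.40 (1.32-fold, adjusted p = 0.0234, under the 1.5-fold threshold), and Dmimic differed by 0.25 (1.19-fold, adjusted p = 0.0795). Including AllStar replicate 3, these differences were -0.23 and 0.42 (adjusted p = 0.246 for Dmimic). The second probe set of ANKRD37 was dim, at 3.82 to 4.92, and had a difference between the mimics of -0.02.

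**Figure D2:**
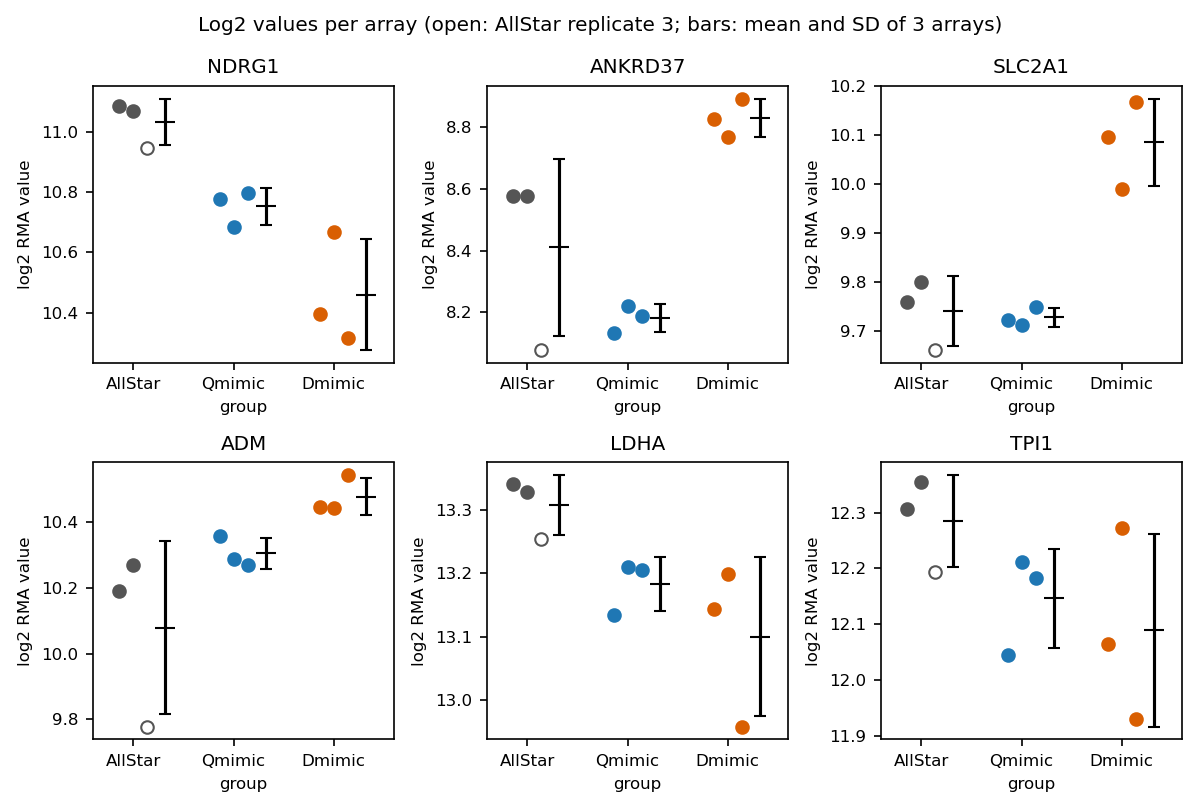
Log2 value of 6 genes on each array (points, coloured by group, open for AllStar replicate 3), with the mean and SD of 3 arrays beside them; each vertical axis has its own range and does not start at 0. NDRG1 steps down from AllStar over Qmimic to Dmimic, the Dmimic arrays of ANKRD37 and SLC2A1 lie above all others, and the AllStar SD of ANKRD37 and ADM is set by replicate 3.

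The 17 glycolysis enzymes differed little in either mimic, and 0 of them were called in any comparison. Without AllStar replicate 3 their median difference was -0.05 for Qmimic and -0.09 for Dmimic against AllStar, and their smallest adjusted p was 0.272 and 0.183. Over all 9 arrays the medians were 0.02 and -0.00. The abundant enzymes had narrow intervals. GAPDH, which oxidises glyceraldehyde 3-phosphate and serves many studies as a reference gene, read 13.78, 13.76 and 13.61 in AllStar, 13.71, 13.72 and 13.76 in Qmimic and 13.71, 13.75 and 13.68 in Dmimic. Its difference was -0.04 (95% interval -0.18 to 0.10) in Qmimic and -0.06 (-0.20 to 0.08) in Dmimic, so that a change of 1.5-fold lay outside both intervals. PGK1, which makes the first ATP of the pathway and whose promoter is printed above, differed by -0.04 in Qmimic and -0.06 in Dmimic. PKM, the pyruvate kinase of most tissues, differed by -0.01 and 0.01, and ENO1, the main enolase, by -0.09 and -0.10.

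Among the enzymes, TPI1, PFKFB3, HK1, PGAM1 and PFKM ranked highest by adjusted p over both mimics, at 0.167 to 0.308. TPI1, which interconverts the 2 triose phosphates, read 12.31, 12.35 and 12.19 in AllStar, 12.05, 12.21 and 12.18 in Qmimic, and 12.06, 12.27 and 11.93 in Dmimic. The mimic arrays lay below AllStar replicates 1 and 2, but 2 of the 6 lay above AllStar replicate 3. Its difference without that array was -0.18 in Qmimic (adjusted p = 0.358) and -0.24 in Dmimic (adjusted p = 0.24). PFKFB3, which makes the activator fructose 2,6-bisphosphate and so speeds up phosphofructokinase, read 8.38, 8.29 and 7.67 in AllStar, 7.94, 8.27 and 8.16 in Qmimic, and 8.09, 8.14 and 8.01 in Dmimic. It differed by -0.21 and -0.25 without AllStar replicate 3, the array on which it was lowest.

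HK1, a hexokinase that traps glucose in the cell, read 11.13, 11.13 and 10.80 in AllStar, 11.02, 11.06 and 11.08 in Qmimic, and 10.96, 11.01 and 10.84 in Dmimic, again with its lowest value on AllStar replicate 3. It differed by -0.08 and -0.19 when that array was left out. PGAM1, the phosphoglycerate mutase, read 12.61, 12.61 and 12.43 in AllStar, 12.48, 12.50 and 12.50 in Qmimic, and 12.48, 12.54 and 12.47 in Dmimic, and differed by -0.12 in both mimics. PFKM, a phosphofructokinase subunit, went the other way. It read 9.57, 9.50 and 9.40 in AllStar, 9.75, 9.64 and 9.55 in Qmimic, and 9.66, 9.69 and 9.80 in Dmimic. The Dmimic arrays lay above all AllStar arrays, with a difference of 0.18 (adjusted p = 0.279), and Qmimic overlapped AllStar with 0.11. The other phosphofructokinase subunits did not share it: PFKL differed by -0.01 and -0.08 and PFKP by -0.00 and 0.03.

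The 4 genes for the fate of pyruvate included 0 that were called. LDHA, the lactate dehydrogenase subunit that favours making lactate, read 13.34, 13.33 and 13.25 in AllStar, 13.13, 13.21 and 13.21 in Qmimic, and 13.14, 13.20 and 12.96 in Dmimic. All 6 mimic arrays lay below all 3 AllStar arrays. The distance was small: -0.15 in Qmimic (adjusted p = 0.353) and -0.23 in Dmimic (1.18-fold, adjusted p = 0.16) without AllStar replicate 3, and -0.12 and -0.21 with it. LDHB, the other subunit, differed by -0.01 and -0.04. PDK1, the kinase that shuts pyruvate out of the mitochondrial citric acid cycle in hypoxia, read 8.67, 8.67 and 8.01 in AllStar, 8.32, 8.59 and 8.49 in Qmimic, and 8.57, 8.52 and 8.37 in Dmimic. It differed by -0.21 and -0.18 without AllStar replicate 3, its lowest array. PDK3, a sister kinase, was higher in every Qmimic than in every Dmimic array, by 0.26, but did not pass the test (adjusted p = 0.176).

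Of the glucose transporters, SLC2A1 (GLUT1) came closest to a call for Dmimic. It read 9.76, 9.80 and 9.66 in AllStar, 9.72, 9.71 and 9.75 in Qmimic, and 10.10, 9.99 and 10.17 in Dmimic. Every Dmimic array lay above all 6 others, while the Qmimic arrays lay within the range of AllStar. Leaving out AllStar replicate 3, Dmimic differed from AllStar by 0.30 (SE 0.07, 1.24-fold, adjusted p = 0.054) and Qmimic from Dmimic by -0.36 (SE 0.06, 1.28-fold, adjusted p = 0.0652). Using all 9 arrays, these were 0.34 (adjusted p = 0.162) and -0.36 (adjusted p = 1). Its second probe set differed by 0.22 in Dmimic against AllStar (adjusted p = 0.213) and by -0.24 between the mimics. SLC2A3 (GLUT3) differed by 0.10 in Qmimic and 0.17 in Dmimic on the probe set that stands for it, and its probe sets disagreed, as given further on.

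The transcripts of the HIF subunits and hydroxylases included 0 called of 5. HIF1A, the alpha subunit most cells use, had a mean of 11.99 ± 0.20 (SD, n = 3) in AllStar, 12.15 ± 0.03 in Qmimic and 12.03 ± 0.03 in Dmimic, with 11.76 on AllStar replicate 3. Leaving out that array, it differed by 0.04 (95% interval -0.10 to 0.18) and -0.08 (-0.21 to 0.06), so that a 1.5-fold change of the transcript lay outside both intervals. EPAS1 (HIF-2 alpha) was lower in every Qmimic than in every Dmimic array, by a log2 difference of -0.25 (adjusted p = 0.187), and differed from AllStar by -0.23 in Qmimic (adjusted p = 0.133) and 0.03 in Dmimic. ARNT, the partner of both, differed by -0.01 and 0.05. EGLN1, the main oxygen sensor among the hydroxylases, differed by 0.05 and -0.05, and EGLN3, itself induced by HIF in many cells, by -0.12 and 0.08.

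The other 9 hypoxia-responsive genes did not move as 1 group. Their differences from AllStar without replicate 3 ran from -0.62 (NDRG1) to 0.28 (ANGPTL4) in Dmimic and from -0.40 (ANKRD37) to 0.13 (BNIP3L) in Qmimic, with medians of 0.15 and -0.01. ADM, the vasodilator peptide adrenomedullin, read 10.19, 10.27 and 9.78 in AllStar, 10.36, 10.29 and 10.27 in Qmimic, and 10.45, 10.44 and 10.54 in Dmimic. The Dmimic arrays lay above all others, with a difference of 0.25 from AllStar without replicate 3 (1.19-fold, adjusted p = 0.0887). CA12, a membrane carbonic anhydrase that handles acid, read 8.63, 8.57 and 8.28 in AllStar, 8.61, 8.41 and 8.42 in Qmimic, and 8.36, 8.37 and 8.35 in Dmimic. It differed by -0.24 in Dmimic (adjusted p = 0.128) without AllStar replicate 3, which lay below the Dmimic arrays.

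BNIP3L, a receptor that sends mitochondria to autophagy, read 11.13, 11.14 and 10.57 in AllStar, 11.26, 11.30 and 11.22 in Qmimic, and 11.30, 11.21 and 11.34 in Dmimic. All mimic arrays lay above all AllStar arrays, by 0.13 and 0.15 without AllStar replicate 3 (adjusted p = 0.353 and 0.289). Its relative BNIP3 differed by -0.09 and -0.12. VEGFA, the main growth factor for new vessels, differed by -0.01 and -0.11. ANGPTL4, a secreted inhibitor of lipoprotein lipase, differed by 0.07 and 0.28 (adjusted p = 0.172 in Dmimic), and AllStar replicate 3 had its highest value of all arrays, 7.79. KDM3A, a histone demethylase, differed by 0.09 and 0.15.

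**Figure D3:**
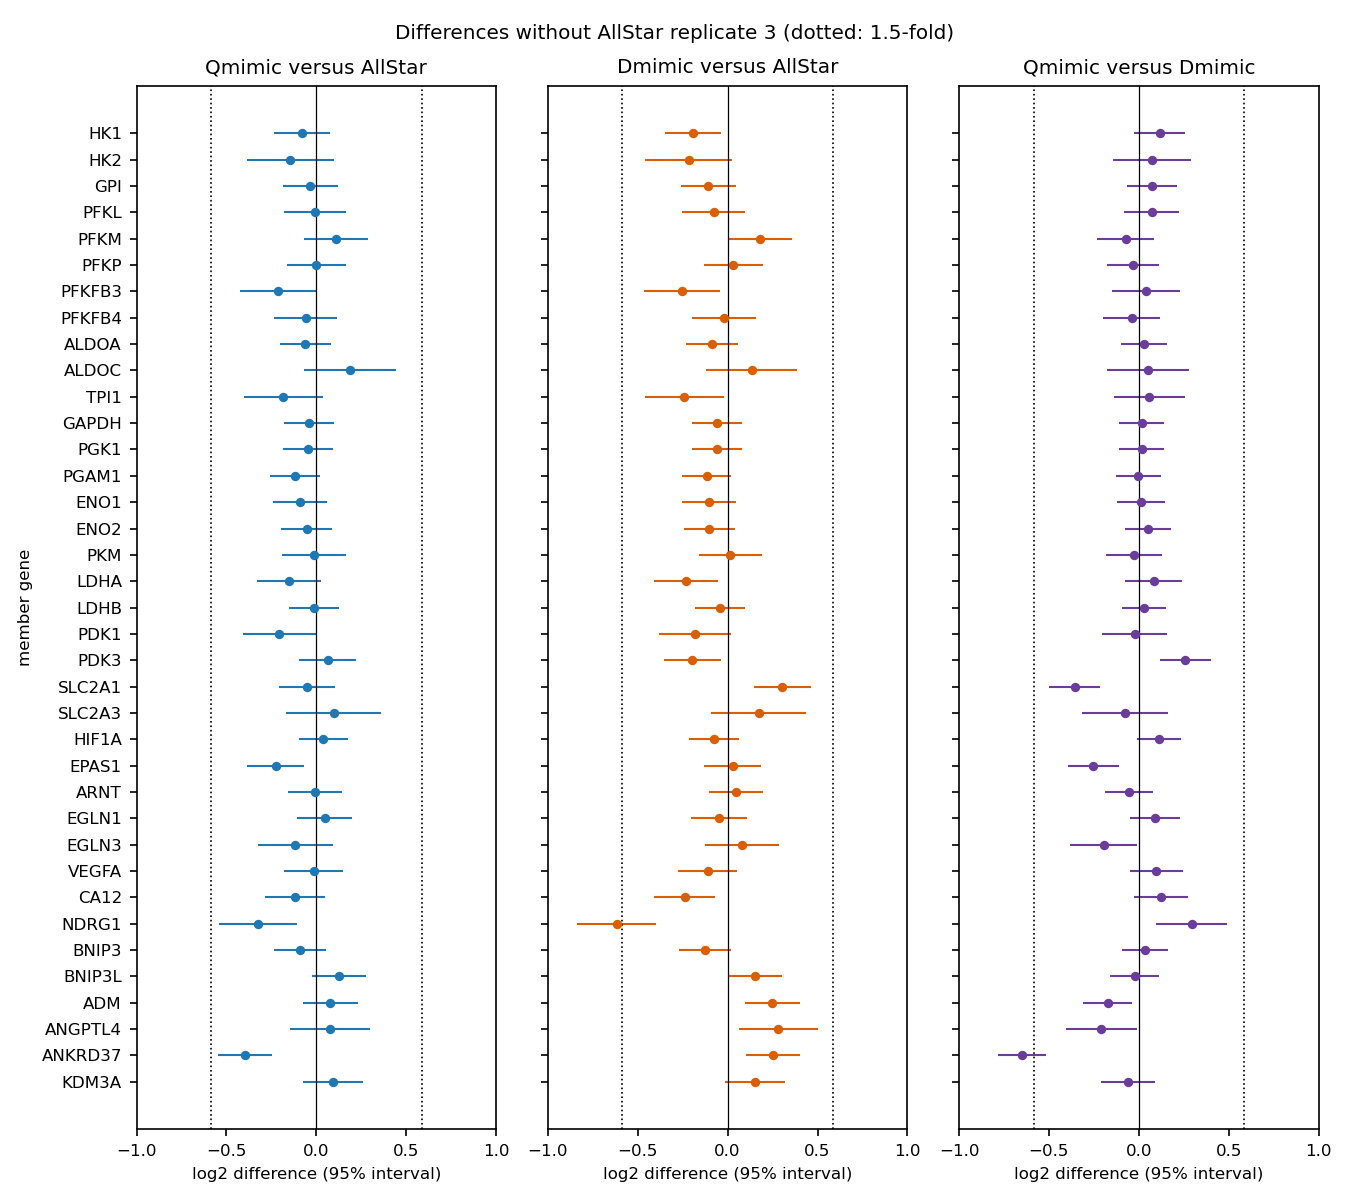
Log2 difference of each of the 37 genes with its 95% interval in limma without AllStar replicate 3, for Qmimic against AllStar, Dmimic against AllStar and Qmimic against Dmimic (the first named minus the second); dotted lines mark 1.5-fold. All intervals lie inside the dotted lines but those of NDRG1 in Dmimic and ANKRD37 between the mimics.

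A gene's other probe sets read other stretches of its transcripts and did not always give the same answer. The 37 genes had 93 probe sets, and 26 genes had more than 1. SLC2A3 was the clearest case. Its probe set 202499_s_at read 8.22, 8.14 and 7.51 in AllStar, 8.86, 8.68 and 8.55 in Qmimic, and 8.68, 8.73 and 9.23 in Dmimic, with every mimic array above every AllStar array. In the fit without AllStar replicate 3 it rose by 0.70 in Dmimic (SE 0.15, 1.62-fold, adjusted p = 0.045) and by 0.61 over both mimics (1.52-fold, adjusted p = 0.0439), and differed by 0.51 in Qmimic (adjusted p = 0.114). The adjusted p over all 9 arrays was 0.133 in Dmimic and 0.0835 over both. The brighter 202497_x_at, which stands for the gene, differed by 0.17 in Dmimic and 202498_s_at by 0.38. Probe sets whose names end in _x_at can also bind related sequences, and 7 of the 37 genes are represented by such a probe set.

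Other differences between probe sets were smaller. For ARNT, 218221_at was higher over both mimics by 0.32 (1.25-fold, adjusted p = 0.0412), while the probe set for the gene, 218222_x_at, differed by -0.01 and 0.05. Of its other 5 probe sets, 230619_at differed by 0.36 in Qmimic and 0.28 in Dmimic and 231016_s_at by 0.43 and 0.39, without passing the test, and the remaining 3 lay between -0.20 and 0.11. For EPAS1, the dim 200879_s_at was lower in Qmimic by a difference of -0.41 (adjusted p = 0.0303), the same direction as the brighter one. For ENO1, the dim 240258_at differed by -0.43 in Dmimic (adjusted p = 0.0443), whereas 217294_s_at differed by -0.23 and 216554_s_at by -0.04. The differences on 218221_at, 200879_s_at and 240258_at passed adjusted p but not 1.5-fold, and with all 9 arrays that for ARNT had an adjusted p of 0.0872, that for EPAS1 one of 0.149 and that for ENO1 one of 0.489. The other 3 probe sets of VEGFA had differences of -0.19 to -0.35 in the mimics, and those of TPI1 lay between -0.08 and -0.33.

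**Figure D4:**
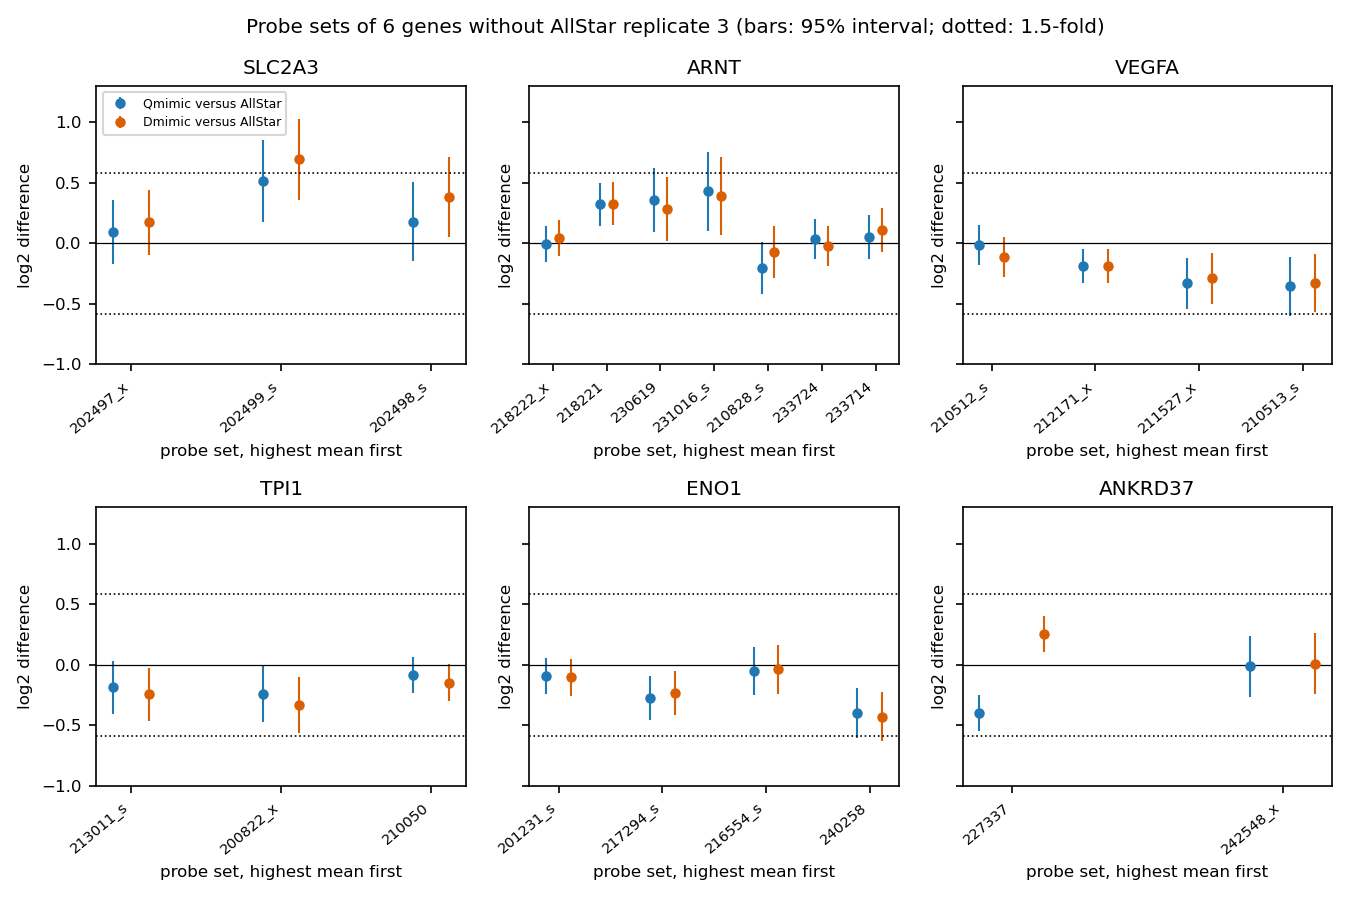
Log2 difference from AllStar without replicate 3, with its 95% interval, for each probe set of 6 genes in Qmimic (blue) and Dmimic (orange), from the highest mean on the left; dotted lines mark 1.5-fold. The second probe set of SLC2A3 lies at 0.51 and 0.70 while the first lies at 0.10 and 0.17, and for ANKRD37 the difference between the mimics is seen on the bright probe set only.

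Genes of the same pathways outside the list of 40 gave a similar count. Of 31 further genes of glucose metabolism with a value, 0 were called in any of the 4 comparisons in either fit. Of 38 further hypoxia and HIF genes, 0 were called with all 9 arrays, and without AllStar replicate 3 there were 0 for Qmimic, 2 for Dmimic, both lower, 1 lower over both mimics (TMEM45A) and 0 between the mimics. The shares of all genes are those given above for the same comparisons. TMEM45A, a membrane protein gene that responds to hypoxia, read 7.83, 7.92 and 6.96 in AllStar, 7.20, 7.45 and 7.25 in Qmimic, and 7.07, 7.03 and 6.93 in Dmimic, with AllStar replicate 3 among the Dmimic arrays. When that array was left out, TMEM45A fell by 0.86 in Dmimic (1.82-fold, adjusted p = 0.00493) and by 0.57 in Qmimic (1.49-fold, adjusted p = 0.0158). When it was kept, TMEM45A differed by -0.56 in Dmimic (adjusted p = 0.324) and by -0.27 in Qmimic (adjusted p = 0.482).

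ZNF395, a transcription factor gene induced by hypoxia, read 9.91, 9.87 and 9.45 in AllStar, 9.47, 9.59 and 9.60 in Qmimic, and 9.37, 9.39 and 9.12 in Dmimic. All Dmimic arrays lay below all AllStar arrays, and without AllStar replicate 3 the gene fell by 0.59 (1.51-fold, adjusted p = 0.0159). ZNF395 differed by -0.45 over all 9 arrays (adjusted p = 0.225). AK4, an adenylate kinase of mitochondria, and PLOD1, a collagen lysyl hydroxylase, each fell by 0.42 in Dmimic without that array (adjusted p = 0.0201 and 0.0462), below the 1.5-fold threshold. GYS1, muscle glycogen synthase, rose by 0.32 over both mimics (adjusted p = 0.0494), also below it. AXL, the target named in the title, fell by 0.55 in Qmimic and 0.57 in Dmimic without AllStar replicate 3 (adjusted p = 0.0394 and 0.0317). Both differences were below the 1.5-fold threshold, so AXL was not called. With that array AXL differed by -0.71 and -0.73 (adjusted p = 0.162 and 0.115). Its dimmer probe set, 202685_s_at, had a mean of 8.95 in AllStar, 8.16 in Qmimic and 8.02 in Dmimic. The mean of AllStar replicates 1 and 2 there was 9.01, and all mimic arrays lay below all AllStar arrays.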

How the data were processed

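RMA by the authors gave the deposited log2 value of each probe set, per the labels' design text. No version of RMA or limma is given in the sources used here. Of 54675 probe sets on 9 arrays, 62 are controls, and 54613 entered the tests with no filter on low values. A single gene is named for 41091 of these, more than 1 for 1801 and no gene for 11721.

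In limma 3.58.1 under R 4.3.3, every probe set was fitted by group mean over all 9 arrays and again without AllStar replicate 3. The comparisons were each mimic and the mean of both mimics against AllStar, and Qmimic against Dmimic. P-values were moderated by eBayes and adjusted by Benjamini-Hochberg over the 54613 probe sets. A gene was called at an adjusted p under 0.05 and at least 1.5-fold. Precision is limited by how few arrays there are. The main fits did not use the replicate numbers, and a fit with them as a block is given below. Of 9 same-number pairs across groups, 3 had a residual correlation above 0.1, with a range of -0.275 to 0.219. Pairs with different numbers were not examined, so these values cannot show whether the numbers pair the arrays. The procedure was tested on simulated data for Dmimic against AllStar on 54613 probe sets. It recovered 83 of 100 changes of 2-fold with 9 arrays and 95 of 100 with 8. The simulated noise was independent and had the same spread on every array, so the shift of AllStar replicate 3 across many genes was not reproduced. Changes near 1.5-fold were not simulated, so these counts do not give the recovery at the threshold.

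The 40 symbols and the further lists (74 genes, 69 measured) were chosen with earlier results of these data known. Any of the 40 could be named. Values per array are given for those called in either fit, filled to 12 by the smallest adjusted p over both mimics without AllStar replicate 3; SLC2A1, HIF1A, GAPDH and the probe sets were added after their values were seen. Further genes were named where called, and AK4, PLOD1 and GYS1 after their values were seen. Promoters of RefSeq (GRCh38.p14) were searched for ACGTG and GCGTG on both strands.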

Additional observations from a re-analysis of the deposited data

How the results depend on the processing

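Which genes were called changed with AllStar replicate 3. With all 9 arrays, 0 genes of the 37 were called for Dmimic against AllStar, and leaving out 1 array at a time gave 0 to 1, with 1 only without AllStar replicate 3; normalising again by quantiles or by cyclic loess also gave 1. In both of those settings it was NDRG1, at -0.69 (adjusted p = 0.0471) and -0.72 (adjusted p = 0.0311). For Qmimic against Dmimic, 0 were called with all 9 arrays, 0 to 1 when 1 array was left out, and 1 each with quantiles, with cyclic loess and with the mimic arrays alone. That gene was ANKRD37, at -0.67 (adjusted p = 0.0226) and -0.66 (adjusted p = 0.0219) under the first pair of settings.

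Without AllStar replicate 3, the 1 gene called for Dmimic became 0 at a log2 change of at least 1.5 and with the arrays of those groups alone, and 0 to 1 when a further array was left out (0 without AllStar replicate 1, AllStar replicate 2, Dmimic replicate 1 or Dmimic replicate 3; a lone AllStar array was then assumed to vary like the other groups). With the replicate number as a block the count was 0, and NDRG1 stood at -0.59 (adjusted p = 0.0939); the block changed no other count. The 1 gene called between the mimics became 0 at a log2 change of at least 1.5 and with the median of a gene's probe sets. Adjusted p alone gave 1 in place of 0 for Qmimic and for both mimics against AllStar. Of the values of single genes, 2484 of the alternatives kept their side of the threshold with all 9 arrays and 7 passed only in the alternative; without AllStar replicate 3, 2336 kept it and 7 lost it, and 0 of those past an unadjusted p of 0.05 changed direction. The causes were not tested.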

Other observations

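Some further probe sets, picked after their values were seen, passed adjusted p without AllStar replicate 3. For AK4, which makes ADP in mitochondria and is induced by HIF, all 4 probe sets were lower in Dmimic and 3 of them passed adjusted p, while 204348_s_at differed by -0.38 (adjusted p = 0.127). The largest difference was on 204347_at, which read 8.57, 8.38 and 7.89 in AllStar, 7.89, 8.03 and 8.05 in Qmimic, and 7.85, 7.52 and 7.50 in Dmimic. It fell by 0.85 in Dmimic (1.81-fold, adjusted p = 0.0103), and with all 9 arrays AK4 differed there by -0.66 (adjusted p = 0.169).

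PFKFB2, a relative of PFKFB3, was higher on its dim probe set 209992_at by 0.45 in Dmimic (adjusted p = 0.0461). Qmimic lay near Dmimic there, with means of 5.43 and 5.45, beside 5.00 over AllStar replicates 1 and 2. The other 3 probe sets of PFKFB2 did not pass in Dmimic: 226733_at, which stands for the gene, differed by 0.33 (adjusted p = 0.122), 238450_at by 0.10 and 207931_s_at by 0.00. PDP1, the phosphatase that reverses the action of the PDK kinases, read 10.71, 10.66 and 10.05 in AllStar, 11.23, 11.17 and 11.03 in Qmimic, and 11.05, 10.99 and 11.45 in Dmimic. All mimic arrays of PDP1 lay above all AllStar arrays, but it did not pass the test in either mimic (adjusted p = 0.0943 and 0.0738).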
